A study of Mus musculus with 13 samples.

Results

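The 10 genes described here mark mature fat cells and their handling of fatty acids: Pparg, Cebpa, Fabp4, Lpl, Cd36, Plin4, Acvr1c, Car3, Gpd1 and Gpihbp1. They were taken by symbol from a deposited table of 54532 genes. Each symbol had 1 row, and all 10 rows were among the 14421 genes kept for testing. The study sequenced RNA from the inguinal fat pad, a white adipose depot under the skin of the groin, of individual mice fasted for 12 h. Its title concerns how a high-protein diet bears on sleep fragmentation, heart damage, inflamed fat and gut microbes. The group SC_ConD held 3 chow-fed mice that slept normally. SF_ConD held 5 chow-fed mice whose sleep was fragmented, and in SF_HPD 5 mice with the same sleep treatment ate a diet with 50% of its energy from protein, 12% from fat and 38% from carbohydrate. Mice had been allotted at random with body weights matched. Fasting and tissue were shared by all groups, and strain, sex and age are not given in the labels used here.

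White adipocytes store fatty acids as triglyceride in 1 large lipid droplet. Lipoprotein lipase, made mostly by the adipocyte, is carried to the capillary wall by GPIHBP1 and frees fatty acids from circulating lipoproteins; CD36 and fatty acid binding proteins then move them into and through the cell, and droplet proteins coat the stored fat. The nuclear receptor PPAR-gamma and the transcription factor C/EBP-alpha drive the formation of adipocytes and maintain their gene programme, in which Fabp4, Lpl, Cd36 and Plin4 are known targets of PPAR-gamma.

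Promoter sequences are shown for Pparg, because its row in the table sums transcripts from separate starts, and for Cd36 and Plin4, as known targets that differed from Pparg in the libraries below. The RefSeq promoter table for GRCm38.p6 held 5 of the 10 genes, with 8 starts. Each sequence is the 250 bases before the first transcribed base, written in the direction of transcription. The windows lie at chr6:115360894-115361143 (plus strand) and chr6:115362099-115362348 (plus strand) for the 2 upstream Pparg starts, chr6:115421816-115422065 (plus strand) for the internal Pparg start, chr5:17835897-17836146 (minus strand) for Cd36 and chr17:56109783-56110032 (minus strand) for Plin4. Capitals mark, on either strand, the TATA box motif TATAAA, the box motif CCAAT of many promoters and the half-site AGGTCA, which PPAR-gamma and related receptors bind. No matches in these windows overlapped each other.
Pparg first upstream start: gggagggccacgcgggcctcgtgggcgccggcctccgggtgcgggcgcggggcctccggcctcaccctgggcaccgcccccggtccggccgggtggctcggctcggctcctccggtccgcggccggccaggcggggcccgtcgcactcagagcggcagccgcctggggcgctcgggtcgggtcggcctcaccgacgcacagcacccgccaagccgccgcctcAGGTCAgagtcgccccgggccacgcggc
Pparg second upstream start: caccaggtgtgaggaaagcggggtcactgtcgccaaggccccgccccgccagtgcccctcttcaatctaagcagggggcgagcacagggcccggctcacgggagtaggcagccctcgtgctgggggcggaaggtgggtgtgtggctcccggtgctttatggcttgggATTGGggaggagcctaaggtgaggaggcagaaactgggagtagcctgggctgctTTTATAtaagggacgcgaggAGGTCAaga
Pparg internal start: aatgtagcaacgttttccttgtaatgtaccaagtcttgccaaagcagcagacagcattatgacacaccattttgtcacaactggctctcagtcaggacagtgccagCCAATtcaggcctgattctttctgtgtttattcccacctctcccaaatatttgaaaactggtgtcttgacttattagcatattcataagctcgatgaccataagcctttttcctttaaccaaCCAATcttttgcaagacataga
Cd36: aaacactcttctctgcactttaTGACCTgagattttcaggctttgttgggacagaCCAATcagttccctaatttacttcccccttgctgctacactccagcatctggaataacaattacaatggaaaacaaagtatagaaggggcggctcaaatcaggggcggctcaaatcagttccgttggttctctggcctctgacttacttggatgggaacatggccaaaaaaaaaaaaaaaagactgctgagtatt
Plin4: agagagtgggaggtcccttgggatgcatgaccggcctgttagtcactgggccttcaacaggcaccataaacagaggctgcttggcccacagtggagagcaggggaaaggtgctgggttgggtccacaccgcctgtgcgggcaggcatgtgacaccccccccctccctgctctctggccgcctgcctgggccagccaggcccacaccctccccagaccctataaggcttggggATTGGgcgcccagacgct

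The internal Pparg start is that of the principal transcript, Pparg-201, and gives the PPAR-gamma2 form typical of adipocytes. The other 2 starts lie upstream. The window of the first was 82.4% G or C with 1 AGGTCA, 28 bases before the start. That of the second was 63.6% G or C with 1 CCAAT, 1 TATAAA and 1 AGGTCA, the last 9 bases before the start, the most matches of the 8 windows; the internal window was 40.8% G or C with 2 CCAAT boxes. The Cd36 window held 1 AGGTCA and 1 CCAAT, and the Plin4 window 1 CCAAT. No principal transcript starts exactly at the Cd36 start used here, base 17835896, or at the Plin4 start, base 56109782. The Cd36 start lies inside the gene as annotated (17781690 to 17888801, minus strand). Over all 32851 windows of this length, 14% held AGGTCA, 33.85% held CCAAT and 12.4% held TATAAA on either strand. The full binding element of PPAR-gamma with its partner, a direct repeat of AGGTCA with 1 base between, was in 0.0335% of all windows and in none of the 8 windows of these genes.

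Levels are in FPKM, fragments scaled to gene length and to a total set for each library, as deposited. Reads recovered from these values totalled 14815592 to 18303302 per library. Tissue content differed between libraries. Lymph node genes were high in SF_ConD 1, 4 and 5 and SF_HPD 4 and 5 (mean log2(FPKM + 1) of 17 markers 4.48 to 5.76, against 0.19 to 1.40 elsewhere). Liver genes were high in SC_ConD 2 and 3, with the liver protein gene Alb at 4223 and 1614 FPKM against 3.30 to 88.3 elsewhere. Skeletal muscle genes were high in SF_HPD 4 and SC_ConD 3 (mean log2 of 12 markers 9.27 and 6.24). In bulk tissue, fewer cells of a type and less RNA per cell cannot be told apart. The part of these contents in the group differences below was not tested except where libraries were left out.

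The library labelled SF_HPD 2 stood apart and did not carry the defining transcripts of its labelled tissue at the level of the others. The mean log2(FPKM + 1) of 9 adipocyte reference markers, none of them among the 10 genes, was 3.44 there and 7.50 to 9.08 in the other 12 libraries. Their summed level was 574 FPKM there against 6573 to 41055. The hormone gene Adipoq was at 26.1 FPKM against 666 to 4231, and the droplet coat gene Plin1 at 1.47 against 61.4 to 424. Genes of the bladder's lining epithelium, a list of 12 chosen after the values were seen, were high in that library alone. The uroplakin Upk3a was at 6966 FPKM (at most 51.0 elsewhere), the uroplakin Upk1a at 3269 (at most 2.76) and Psca at 8653 (at most 3.64). The summed level of the 12 was 23259 FPKM, and 1.34 to 159 in the other libraries. Capillary endothelial markers summed to 49.9 FPKM there and to 401 to 1134 elsewhere. Main results for the 10 genes are therefore given with and without this library, and other results where stated.

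Within SF_HPD 2 the 10 genes did not share 1 degree of loss. Lpl was at 0.934% of the median of the other 12 libraries, Cd36 at 1.19%, Acvr1c at 1.24%, Gpd1 at 2.51% and Car3 at 2.51%. Plin4 was at 6.21%, Gpihbp1 at 10.2% and Cebpa at 12.6%, and each of these 8 genes had its lowest value of all 13 libraries there. Fabp4 was at 39.3%, the second lowest value. Pparg was at 83.6%, with 4 libraries below it. Acvr1c rested on 6 reads there (exact 95% Poisson interval 2.20 to 13.1, counting error only). Pparg rested on 1626 reads. Relative to the adipocyte reference markers of the same library, the log2 difference of Pparg was 2.57 in SF_HPD 2 and -2.97 to -0.62 in the others. As background, PPAR-gamma is also made by bladder epithelium.

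**Figure D1:**
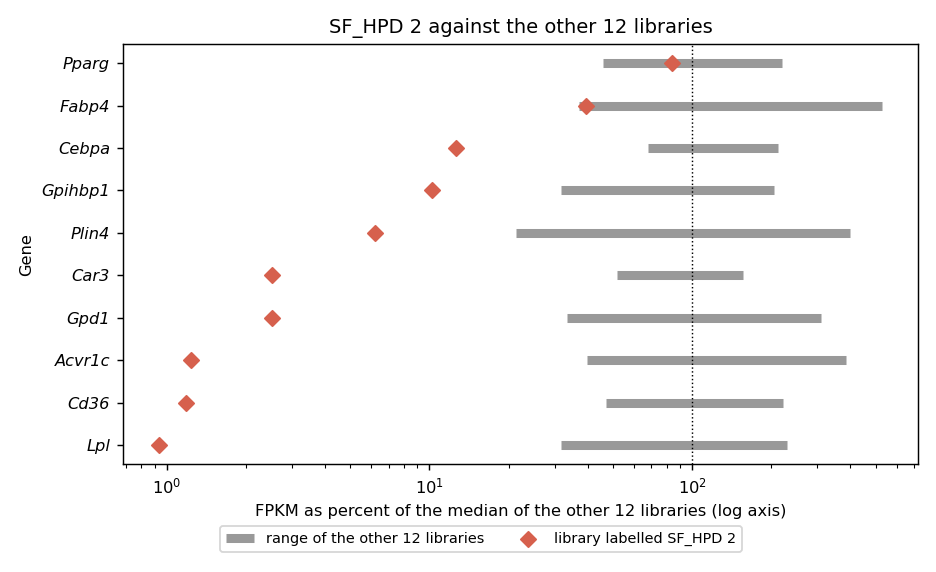
Level of each gene in the library labelled SF_HPD 2 (diamonds) as percent of the median of the other 12 libraries, on a log axis, with grey bars for the range of those 12. Lpl, Cd36 and Acvr1c lie near 1%, and the diamonds for Fabp4 (39.3%) and Pparg (83.6%) lie within their bars.

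The regulators come first. Pparg encodes the nuclear receptor without which adipocytes do not form. It was at 83.2, 136 and 168 FPKM in SC_ConD 1 to 3 and at 57.6, 132, 56.0, 45.7 and 80.9 FPKM in SF_ConD 1 to 5. The SF_HPD values were 68.1, 63.6, 81.8, 34.9 and 71.3 FPKM. All 5 SF_HPD values lay below the lowest SC_ConD value, narrowly for SF_HPD 3, and SF_ConD spanned both. Group means were 129 ± 42.8 (SD, n = 3), 74.3 ± 34.5 (SD, n = 5) and 64.0 ± 17.6 FPKM (SD, n = 5).

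Cebpa encodes the factor that acts with PPAR-gamma to keep the adipocyte programme on. It was at 352, 224 and 170 FPKM in SC_ConD and at 185, 463, 227, 202 and 248 FPKM in SF_ConD. Values in SF_HPD were 505, 29.9, 408, 161 and 360 FPKM. Apart from SF_HPD 2 its highest and lowest values differed 3.13-fold, and the 3 groups overlapped.

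Among the uptake genes, Lpl encodes the lipase itself. Lpl was at 627, 225 and 209 FPKM in SC_ConD and at 95.0, 266, 585, 121 and 449 FPKM in SF_ConD. The 5 SF_HPD libraries held 683, 2.79, 218, 331 and 353 FPKM. Its 3 highest values (585, 627 and 683 FPKM) came from 3 groups, and the groups overlapped across nearly their whole range.

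Gpihbp1 encodes the capillary protein that binds the lipase. It was at 79.4, 180 and 147 FPKM in SC_ConD and at 56.3, 126, 61.5, 55.3 and 113 FPKM in SF_ConD. SF_HPD libraries held 59.5, 9.0, 101, 27.8 and 96.5 FPKM. SC_ConD 2 and 3 were above every other library, while SC_ConD 1 lay among the SF_ConD and SF_HPD values.

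Cd36 encodes the membrane fatty acid transporter. It was at 1251, 381 and 629 FPKM in SC_ConD and at 266, 649, 468, 307 and 418 FPKM in SF_ConD. On the high-protein diet the values were 1182, 6.73, 863, 569 and 562 FPKM. SC_ConD 1 and SF_HPD 1 were highest, and the groups overlapped.

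Fabp4 encodes the fatty acid binding protein of the adipocyte cytosol. It was at 1897, 11132 and 5408 FPKM in SC_ConD and at 1896, 3734, 1552, 1304 and 2129 FPKM in SF_ConD. The SF_HPD libraries stood at 2077, 826, 4511, 781 and 4277 FPKM. The SC_ConD mean of 6145 ± 4661 FPKM (SD, n = 3) rested on SC_ConD 2 and 3, the libraries with liver genes, and SC_ConD 1 was at the level of SF_ConD 1.

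Plin4 encodes a perilipin that coats forming lipid droplets. It was at 239, 85.6 and 69.9 FPKM in SC_ConD and at 19.2, 78.9, 119, 30.6 and 115 FPKM in SF_ConD. SF_HPD 1 to 5 stood at 359, 5.62, 95.2, 211 and 65.7 FPKM. Without SF_HPD 2 it spread 18.7-fold over the 12 libraries, more than any other of the 10 genes.

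Gpd1 encodes the enzyme that supplies glycerol phosphate for triglyceride. It was at 319, 36.3 and 35.7 FPKM in SC_ConD and at 46.8, 266, 122, 55.2 and 82.4 FPKM in SF_ConD. With the high-protein diet levels were 333, 2.69, 92.5, 194 and 172 FPKM. SC_ConD held both the 2 lowest values of the 12 libraries and the second highest.

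Car3 encodes a carbonic anhydrase that is abundant in adipocytes and in muscle. It was at 3552, 6731 and 6064 FPKM in SC_ConD and at 2951, 6358, 3227, 2240 and 4427 FPKM in SF_ConD. Levels in SF_HPD were 4195, 108, 4443, 2462 and 5392 FPKM. It spread 3.01-fold over the 12 libraries other than SF_HPD 2, the narrowest of the 10 genes.

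Acvr1c encodes ALK7, a type I receptor of the TGF-beta family that restrains lipolysis in adipocytes. It was at 18.2, 4.60 and 6.83 FPKM in SC_ConD and at 2.40, 5.98, 10.1, 2.70 and 5.06 FPKM in SF_ConD. High-protein libraries were at 23.2, 0.0746, 5.78, 11.2 and 6.08 FPKM. SF_HPD 1 and SC_ConD 1 were highest, as they were for Cd36, Plin4, Gpd1 and Lpl.

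**Figure D2:**
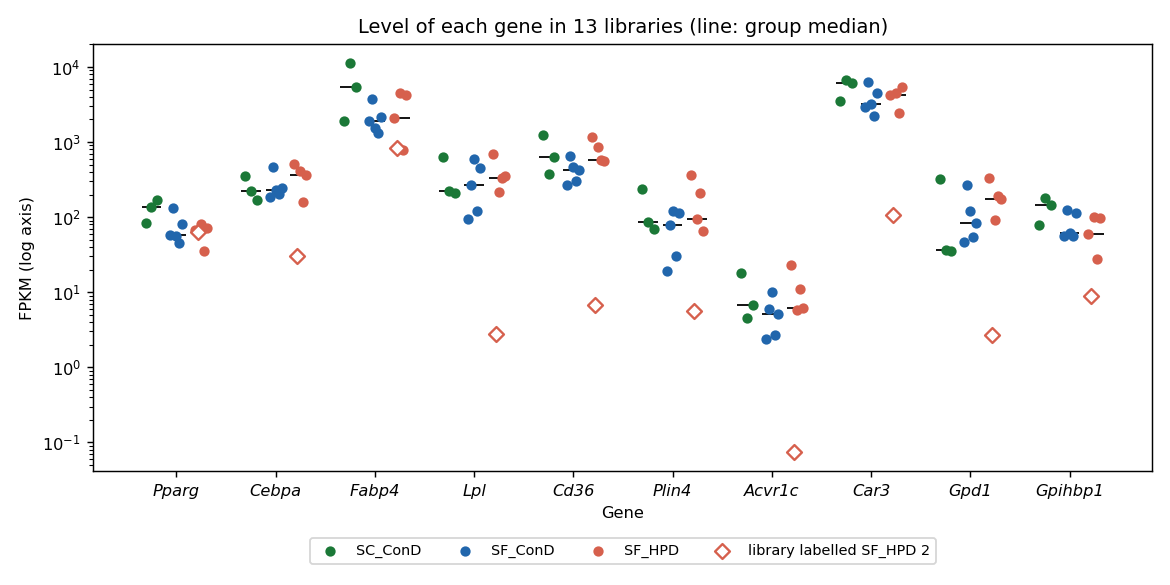
FPKM of each gene (log axis) in the 13 libraries, coloured by group, with a line at each group median and an open diamond for the library labelled SF_HPD 2. The diamond is far below the other points for Lpl, Cd36, Acvr1c, Gpd1 and Car3 and among them for Pparg.

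By mean FPKM over the 12 libraries other than SF_HPD 2, Car3 (4337) and Fabp4 (3392) were highest, followed by Cd36 (629), Lpl (347), Cebpa (292), Gpd1 (146), Plin4 (124), Gpihbp1 (91.9), Pparg (84.6) and Acvr1c (8.50). The order depends on the gene length that the table divides by, which for each of the 10 genes equals the union of all exons annotated in GENCODE vM21. For Fabp4 that length was 4489 bases, the whole gene from first to last base and 5.01 times its principal transcript. For Gpihbp1 it was 3.10 times and for Lpl 2.55 times the principal transcript. Per length of the principal transcript in GENCODE vM21, Fabp4 (16992) came first, then Car3 (7400), Lpl (883) and Cd36 (664), with Acvr1c (8.62) still last. Neighbours such as Gpd1 and Plin4 did not differ beyond their spread over libraries.

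In SF_ConD against SC_ConD, which sets fragmented against normal sleep on chow, none of the 10 genes passed limma's test. Mean log2 levels were lower after sleep fragmentation for 8 of the 10, under each of 5 other scalings too. The log2 fold change was -1.29 (SE 0.89) for Fabp4, -0.95 (SE 1.09) for Plin4, -0.83 (SE 0.45) for Pparg, -0.74 (SE 1.32) for Cd36 and -0.36 (SE 1.37) for Lpl; it was 0.07 (SE 0.81) for Cebpa and 0.31 (SE 1.27) for Gpd1. The smallest adjusted p among the genes was 0.895, for Pparg (limma, Benjamini-Hochberg over all genes kept). The fit pools the spread over all 13 libraries, SF_HPD 2 among them. Without SF_HPD 2 the fold changes were the same. The SE was then 0.56 for Cd36, 0.70 for Lpl, 0.74 for Plin4, 0.52 for Cebpa and 0.78 for Gpd1. It was 0.82 for Fabp4 and 0.44 for Pparg, and the smallest adjusted p was 0.73, for Pparg (limma). The median log2 fold change was -0.73 over the 10 genes and -0.03 over all 14421 genes, of which 47.4% were positive. Of all genes tested 0% passed the adjusted threshold of 0.05, and 5.74% had an unadjusted p under 0.05. These were 828 genes, and 1013 without SF_HPD 2, where again 0 passed. None of the 10 were among them either way. Groups did not overlap for 3.6% of all genes and for none of the 10. Without SC_ConD 1, 194 of all genes passed in place of 0, none of them among the 10, and the median of the 10 was -0.35. That left SC_ConD 2 and 3, both with high liver genes, as the whole of SC_ConD.

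Lymph node genes moved with this comparison. They were high in 3 of 5 SF_ConD libraries and 0 of 3 SC_ConD libraries, with summed levels of 4.43 to 2975 and 4.46 to 27.7 FPKM, and none of the 17 markers was at 0 throughout either group. Over the 12 libraries other than SF_HPD 2, the median of Pparg was 57.6 FPKM in the 5 lymph-node-rich libraries and 83.2 in the other 7, and that of Cebpa 202 and 352. Medians were lower in the lymph-node-rich libraries for 9 of the 10 genes and higher for Lpl (331 against 266). With those 5 libraries left out, the median log2 fold change of the 10 genes was -0.22, with 3 positive. Liver genes moved the other way: with SC_ConD 2 and 3 left out, SC_ConD was 1 library, assumed to vary like the others, the median of the 10 was -0.93 with 2 positive, and Fabp4 was at 0.06 and Gpd1 at -1.77.

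In SF_HPD against SF_ConD, which sets the high-protein diet against chow under fragmented sleep, the direction of 6 of the 10 genes turned when SF_HPD 2 was left out. With all libraries 8 of the 10 were lower on the high-protein diet (3 to 9 over 5 other scalings, 3 with each library centred on its adipocyte reference markers), with a median log2 fold change of -0.23 against 0.01 over all genes (51.9% positive). With that centring 92.7% of all genes were positive. Without SF_HPD 2, 8 of the 10 were higher, with a median of 0.50 against -0.03 over all genes (47.1% positive). None passed the test either way. With all libraries the largest difference was that of Car3, at -0.90 (SE 1.01). Without SF_HPD 2 it was that of Plin4, at 1.34 (SE 0.68) with an adjusted p of 0.991 (limma), against 0.44 (SE 0.94) with all libraries. SF_ConD averaged 72.5 ± 46.3 FPKM (SD, n = 5), while SF_HPD without SF_HPD 2 averaged 183 ± 133 FPKM (SD, n = 4).

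Without SF_HPD 2 the log2 fold change was 0.94 (SE 0.50) for Acvr1c, 0.94 (SE 0.72) for Gpd1, 0.91 (SE 0.51) for Cd36, 0.59 (SE 0.64) for Lpl and 0.40 (SE 0.47) for Cebpa. With it, Cd36 was at -0.41 (SE 1.14), Lpl at -0.73 (SE 1.19) and Cebpa at -0.28 (SE 0.70). Pparg and Gpihbp1 were lower either way, at -0.16 (SE 0.39) and -0.81 (SE 0.61) with it and at -0.18 (SE 0.41) and -0.28 (SE 0.47) without it. Over all genes 0% passed the adjusted threshold with or without SF_HPD 2, 1.89% and 2.9% had an unadjusted p under 0.05, and 0.458% had groups that did not overlap. None of the 10 met any of these, and without SF_HPD 5 the only gene to pass was not among them. Lymph node genes were high in 3 of 5 SF_ConD and 2 of 5 SF_HPD libraries; without the 5, which keeps SF_HPD 2, all 10 genes were lower on the high-protein diet, with a median of -0.99.

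In SF_HPD against SC_ConD, which changes sleep and diet together, Pparg was the gene whose groups did not overlap. Its log2 fold change was -1.0 (SE 0.45), with 34.9 to 81.8 FPKM in SF_HPD and 83.2 to 168 in SC_ConD. The unadjusted p was 0.044 and the adjusted p 1.0 (limma), so the difference did not pass. Without SF_HPD 2 it was -1.01 (SE 0.46), again without overlap. Gpihbp1 had a log2 fold change of -1.54 (SE 0.70) and an unadjusted p of 0.046 (limma); without SF_HPD 2 this was -1.0 (SE 0.53) with 0.085. Of the 10 genes, 2 had an unadjusted p under 0.05 here (limma). The replicate block kept only SF_HPD 1 to 3 and SC_ConD 1 to 3. With it Pparg was at -0.80 (SE 0.31) and Gpihbp1 at -1.71 (SE 0.91), and 0 of the 10 had such a p. There were also 0 under TPM rescaling, quantile normalization, limma-voom, centring on adipocyte markers or a fit of these groups alone. Over all genes 0.853% had SF_HPD wholly below SC_ConD (1.47% without SF_HPD 2), and 3.68% had an unadjusted p under 0.05 (3.95% without it); 0% passed after adjustment in either case. Without SC_ConD 1, which left only the liver-rich SC_ConD 2 and 3, 196 genes passed in place of 0. Without SF_HPD 5, 1 gene passed. None of these genes were among the 10.

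The other 8 genes overlapped between these groups. Fabp4 was at -1.34 (SE 0.89) and, without SF_HPD 2, at -1.04 (SE 0.86). Car3 was at -1.44 (SE 1.17) and -0.41 (SE 0.70), Lpl at -1.08 (SE 1.37) and 0.23 (SE 0.73), and Cd36 at -1.15 (SE 1.32) and 0.18 (SE 0.59). The median over the 10 genes was -1.04 with 1 positive (1 to 4 over the other scalings), and 0.19 with 6 positive without SF_HPD 2, against 0.02 over all genes both times. The count of 4 came with centring on adipocyte markers, where 95.2% of all genes were positive. Liver genes were high in 2 of 3 SC_ConD libraries and in no SF_HPD library, with summed levels of 2114 to 25965 and 558 to 4731 FPKM; without SC_ConD 2 and 3 the median of the 10 genes was -1.18. The 3 comparisons share libraries, so their values are not independent of each other.

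**Figure D3:**
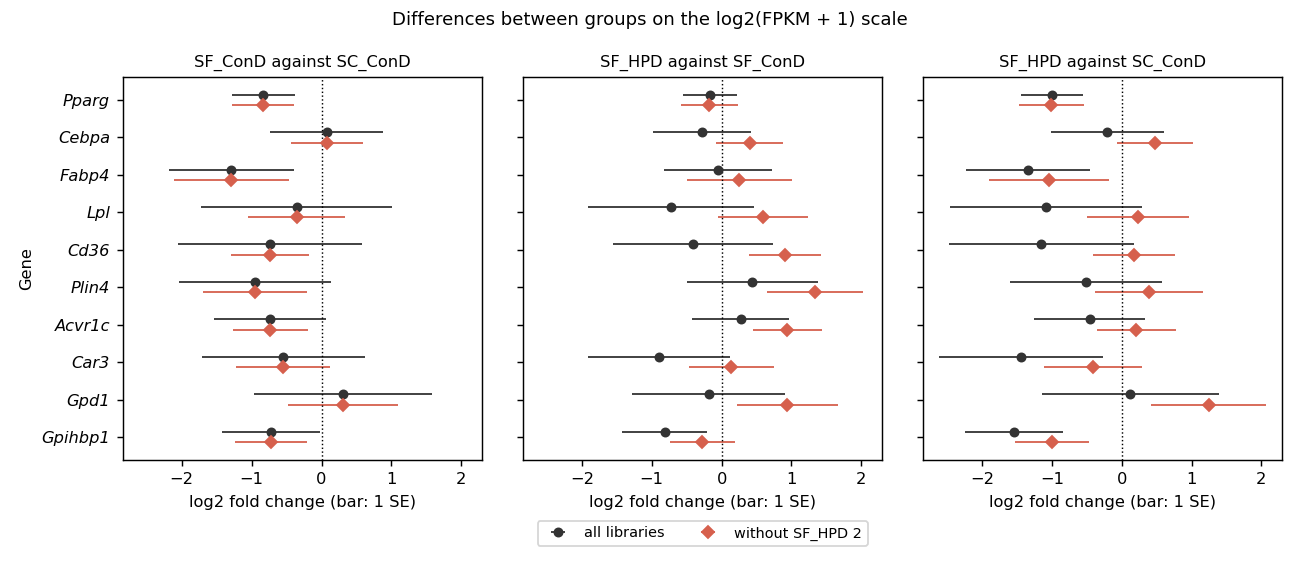
Log2 fold change of each gene with 1 SE in the 3 comparisons, with all libraries (circles) and without the library labelled SF_HPD 2 (diamonds). In SF_HPD against SF_ConD the diamonds lie right of 0 for 8 of 10 genes and the circles for 2.

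Across libraries the 10 genes did not vary as 1 block. Over the 12 libraries other than SF_HPD 2, Pparg, Fabp4, Car3 and Gpihbp1 ranked alike, with Spearman rho of 0.874 to 0.937 for their pairs. Lpl, Cd36, Plin4, Acvr1c and Gpd1 formed another set, with rho of 0.545 to 0.832. Between the sets rho ran from -0.34 to 0.34. Cebpa had rho of 0.24 to 0.38 with the first set and of 0.27 to 0.63 with the second, so its ranges overlapped. These are descriptions over libraries that share tissue content, with the sets drawn after the values were seen.

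**Figure D4:**
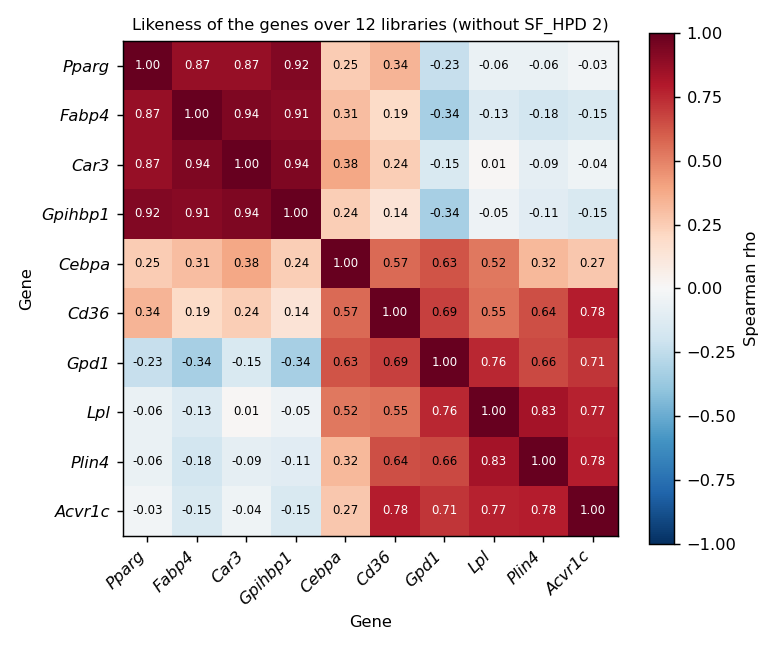
Spearman rho of each pair of genes over 12 libraries (without SF_HPD 2), with blue for negative and red for positive values. Pparg, Fabp4, Car3 and Gpihbp1 form 1 dark block (0.874 to 0.937), and Lpl, Cd36, Plin4, Acvr1c and Gpd1 a second (0.545 to 0.832).

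The sets differed in the length of the principal transcript but overlapped in the length that the table divides by. By that table length, Fabp4 (4489 bases) was longer than Cebpa (2636), Gpd1 (2961) and Cd36 (3590). The principal transcripts of the first set were 825 bases (Gpihbp1), 896 (Fabp4), 1679 (Car3) and 1767 (Pparg). Those of the other genes ran from 2626 (Cebpa) to 9162 (Acvr1c). In 4 libraries, SC_ConD 1, SF_ConD 3, SF_HPD 1 and SF_HPD 4, levels across all genes leaned toward genes of long table length. Spearman rho between a gene's deviation and that length was 0.484 to 0.563 in them, against -0.436 to 0.032 in the rest. The median in these 4 over that in the 8 others, SF_HPD 2 left out, was 0.431 for Fabp4, 0.565 for Gpihbp1, 0.689 for Car3 and 0.762 for Pparg. It was 1.23 for Cebpa, 1.79 for Cd36, 2.71 for Acvr1c, 2.74 for Lpl, 3.03 for Plin4 and 3.73 for Gpd1. The 4 libraries held the 4 highest values of Acvr1c (10.1 to 23.2 FPKM, against at most 6.83) and of Plin4 (119 to 359, against at most 115). They were 1 of 3 SC_ConD, 1 of 5 SF_ConD and 2 of 5 SF_HPD libraries. With SF_HPD 2 left out and this lean as a covariate, which was chosen after seeing the data, Plin4 and the other 9 genes still did not pass in any comparison. The part of RNA or library quality in this lean was not tested.

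**Figure D5:**
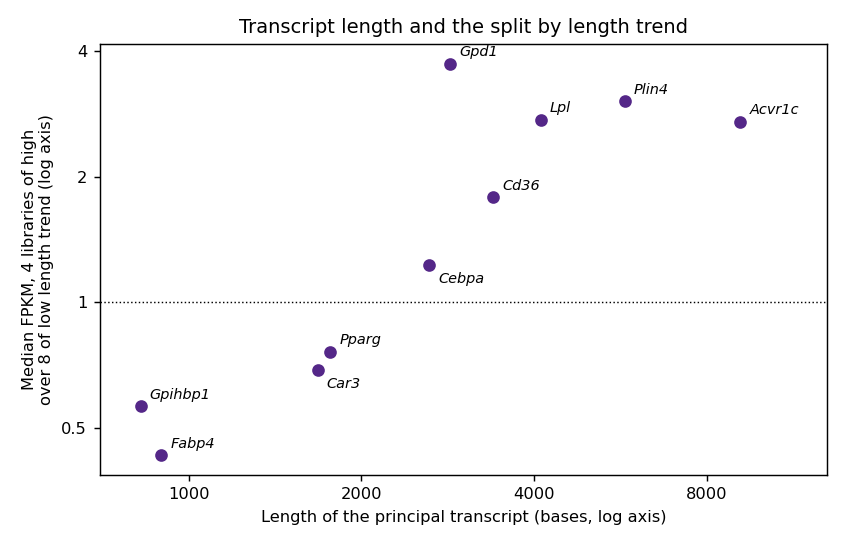
Length of the principal transcript (bases, log axis) against the median FPKM in the 4 libraries that lean toward long genes over that in 8 others (log axis, dotted line at 1), for the 10 genes. The 4 genes with the shortest transcripts lie below 1 (0.431 to 0.762) and the 6 longer ones above 1 (1.23 to 3.73).

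The wider pathways were read from lists of other genes, with counts by the sign of the log2 fold change and, in brackets, the range of that count over this scaling and 5 others. No gene of any list passed limma's test in any comparison, with or without SF_HPD 2. The bracketed ranges include SF_HPD 2. With each library centred on its adipocyte reference markers, 72.8% of all genes were positive in SF_ConD against SC_ConD and 92.7% in SF_HPD against SF_ConD. As reported these shares were 47.4% and 51.9%. For lists counted as higher in SF_HPD than in SF_ConD, the upper end of the bracket came from that centring alone. Of 14 adipogenic regulators, 11 (7 to 11) were lower in SF_ConD than in SC_ConD, with a median log2 fold change of -0.29. Rxra, the partner of PPAR-gamma, was at -0.38 (SE 0.36) there, while Srebf1, a lipogenic factor, was at 0.61 (SE 0.68). In SF_HPD against SF_ConD 10 of the 14 (6 to 13) were higher, and 11 without SF_HPD 2. Of 9 adipocyte reference markers 8 (4 to 8) were lower in SF_ConD than in SC_ConD (Adipoq -0.87, SE 1.25, or SE 0.70 without SF_HPD 2). In SF_HPD against SF_ConD 8 (4 to 8) were lower with SF_HPD 2 and 8 higher without it. One of the scalings centres each library on these same 9 markers, so their mean cannot differ there. In SF_HPD against SF_ConD the count of 4 came from that scaling alone.

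Of the lipase's partners and inhibitors 7 of 10 were tested, and all 7 were lower than in SC_ConD in SF_ConD (5 to 7 of 7 to 9 tested) and in SF_HPD (5 to 7). With all libraries, the differences with unadjusted p under 0.05 were of apolipoprotein genes made by liver. Apoa5 was at 78.55 and 27.7 FPKM in SC_ConD 2 and 3, the libraries with liver genes, and at most 1.2 FPKM elsewhere. Its log2 fold change was -3.34 (SE 0.89) in SF_ConD and -3.81 (SE 0.89) in SF_HPD, with adjusted p of 0.716 and 0.394 (limma). Angptl8, an inhibitor made by fat and liver, was at -1.15 (SE 0.73) in SF_HPD against SF_ConD and was listed at 0 in SF_HPD 2. Without that library it was at -0.48 (SE 0.55).

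Of 17 genes of fatty acid uptake and activation, 13 (10 to 13) were lower in SF_ConD than in SC_ConD; 12 (12 to 17) were higher in SF_HPD than in SF_ConD, and 13 without SF_HPD 2. Vldlr, a lipoprotein receptor, was at 1.05 (SE 0.46) and Cav1, the coat protein of caveolae, at 0.87 (SE 0.38) in the last comparison without SF_HPD 2, both with an adjusted p of 0.991 (limma). Of 12 genes of triglyceride synthesis, 7 (5 to 7) were lower in SF_ConD than in SC_ConD; in SF_HPD against SF_ConD 5 (2 to 11) were higher with SF_HPD 2 and 11 without it. Of 10 droplet coat genes tested, 8 (3 to 8) were lower in SF_ConD than in SC_ConD. In SF_HPD against SF_ConD 5 (4 to 8) were higher, or 6 without SF_HPD 2. Pnpla3, a droplet-bound lipase, was at -1.80 (SE 0.77) there and -1.17 (SE 0.65) without SF_HPD 2.

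Of the ALK7 pathway 12 of 16 genes were tested. Of these 8 (6 to 8) were lower in SF_ConD than in SC_ConD. In SF_HPD against SF_ConD 7 (7 to 11) were higher, or 9 without SF_HPD 2. Acvr2b, a type II partner receptor, had a log2 fold change of 0.65 (SE 0.23) in SF_HPD against SF_ConD and of 0.71 (SE 0.24) without SF_HPD 2, with adjusted p of 1.0 and 0.991 (limma). Its FPKM was 0.27 to 1.17 in SF_ConD and 1.05 to 2.52 in SF_HPD. Fst, an extracellular inhibitor of activins, was at -0.91 (SE 0.45) in SF_ConD and -1.09 (SE 0.45) in SF_HPD against SC_ConD. Of 7 carbonic anhydrases tested besides Car3, 4 (4 to 6 of 7 to 9 tested) were lower in SF_ConD than in SC_ConD. In SF_HPD against SF_ConD 5 (2 to 5) were lower, or 4 without SF_HPD 2. Car2 was at 35.3 FPKM in SF_HPD 2 and 0.51 to 11.2 elsewhere.

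Capillary endothelial markers, the cells on which GPIHBP1 is displayed, were lower for 9 of 14 (5 to 9) in SF_ConD than in SC_ConD, with summed levels of 401 to 693 and 581 to 1134 FPKM. In SF_HPD against SF_ConD 11 (2 to 13) were lower, and 10 were higher without SF_HPD 2. Of 13 macrophage markers 7 (6 to 8) were higher in SF_ConD than in SC_ConD, and of 11 stromal progenitor markers tested 9 (6 to 9) were lower. Of 11 epithelial markers tested 10 (10 to 11) were higher in SF_ConD than in SC_ConD. In SF_HPD against SF_ConD 9 (9 to 11) were lower, or 10 without SF_HPD 2. All 17 lymph node markers were higher and all 15 liver markers lower in SF_ConD than in SC_ConD, and all 9 muscle markers tested were lower there and higher in SF_HPD than in SF_ConD, under each of these scalings.

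The genes whose levels ran most like the 10 were found by Spearman correlation with their mean standardised log2 level over 13 libraries, among 6241 named genes that averaged 5 FPKM or more. They were Lonp2 (rho 0.962), Ap2a2 (0.945), Capn2 (0.934), Ntrk2 (0.923), Vnn3 (0.923), Dolk (0.918), Sh2b2 (0.918) and Adrb3 (0.912), the last encoding the adipocyte's beta-3 adrenergic receptor. All 8 were lower in SF_HPD 2 than at the median of the other libraries, with Dolk at 19.1 against 30.1 FPKM and Ntrk2 at 0.126 against 5.30. Without that library rho was 0.965 for Dolk, 0.951 for Ap2a2, 0.944 for Lonp2 and 0.734 for Ntrk2, with the others between.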

How the data were processed

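Libraries came from individual mice, and each was taken as 1 animal; the labels do not say more of how replicates arose. The authors deposited 1 table that lists FPKM, a name, a position and a length for each gene. The submitters' processing notes name CASAVA, HISAT2 2.0.5, featureCounts 1.5.0-p3 and the build mm8 without roles. All 10 genes had the same start and end in GENCODE vM21, so positions are on GRCm38. Multiplying FPKM by length and dividing by each library's smallest step gave whole reads (tolerance 0.05) for 100% of values. The total the authors divided by was 0.479 to 1.23 times the recovered total, and sums of FPKM differed 5.03-fold between libraries. On a relative scale that total was 0.930 to 1.01 times the median-of-ratios factor of each library. Median-of-ratios scaling, 1 of the alternatives, therefore stayed close to the deposited scaling. The source of that total and the use of strand in counting are not stated in the labels.

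All fold changes refer to log2(FPKM + 1), a scale that makes differences of low genes look smaller. Limma 3.58.1 (R 4.3.3, trend and robust options, two-sided) fitted 3 group means to 13 libraries over the 14421 genes that reached 1 FPKM in at least 3 libraries, with Benjamini-Hochberg adjustment at 0.05. This step was also run on simulated reads. Those had no differences in tissue content and no library apart, so that run cannot show how the test behaves on these libraries. The 10 genes and the lists were chosen with earlier results of these data known. All 10 genes are named in all comparisons, up to 4 of each other list by smallest p, and the 8 genes most alike; a symbol with several rows would use the row of highest mean. Adipocyte, endothelial, lymph node, liver, muscle, macrophage, stromal and epithelial marker lists were used; the bladder list was added after the values were seen.

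The labels number replicates in every group. Deviations of same-numbered libraries correlated at 0.711, 0.333 and 0.191 between SF_HPD and SC_ConD. All were above 0.1, and by that rule the numbers were taken as a possible pairing of these groups. The labels state no source of a pairing. The 0.711 was that of SC_ConD 1 and SF_HPD 1, the libraries that leaned most toward long genes (0.559 and 0.563). Whether the numbers pair animals was not tested. In the other comparisons correlations ran from -0.67 to 0.405. Alternatives were other pseudocounts, filters, scalings, variance models, weights, covariates and left-out libraries, with limma-voom on recovered reads.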

Additional observations from a re-analysis of the deposited data

Results flagged for a closer look

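A total of 24 values, the 10 genes and summary levels in the groups of 5, were checked for 1 library far from its group by the gap to its neighbour over the group's whole range, with a critical value of 0.71. Chance flags about 1 group in 20. The 5 values flagged were all of SF_HPD 2, lowest in SF_HPD. On the log2(FPKM + 1) scale Lpl was at 1.92 with the next library at 7.77, Cd36 at 2.95 with the next at 9.14, Car3 at 6.77 with the next at 11.3, and Gpd1 at 1.88 with the next at 6.55. The mean of the adipocyte reference markers was 3.44 with the next at 7.91. The gaps were 0.717 to 0.853 of the range.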

How the results depend on the processing

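None of the 10 genes passed the test under any alternative, so the values here turned in sign without a call. No gene of the table passed with all libraries in any comparison; an unadjusted p under 0.05 was held by 828 genes in SF_ConD against SC_ConD, by 273 in SF_HPD against SF_ConD and by 531 in SF_HPD against SC_ConD, and limma-voom on recovered reads also called 0. Array weights called 271 genes in the first and 148 in the last comparison. Restricted to the 9 libraries with little lean toward long genes, a choice made after seeing the data, 162 and 172 were called. In that subset, as without SC_ConD 1, the SC_ConD group was SC_ConD 2 and 3 alone, the libraries with liver genes. The part of liver genes in these calls was not tested. With SF_HPD 2 left out and the lean as a covariate, 1 was called in the first. Leaving out 1 library gave 0 to 194, 0 to 1 and 0 to 196 genes called, and medians of the 10 genes from -0.85 to -0.35, -0.65 to 0.50 and -1.21 to 0.19; the last turned to 0.19 without SF_HPD 2. The replicate block kept only libraries whose number was in both groups, which dropped libraries 4 and 5 in the comparisons with SC_ConD. With it 0 genes were called in each comparison and the medians of the 10 were -0.59, -0.23 and -1.09. In SF_HPD against SC_ConD Gpd1 turned to -0.64 and no call changed. Leaving out the lymph-node-rich libraries kept the same libraries of these groups and gave the same median, so the 2 settings are not separate checks.

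In SF_ConD against SC_ConD, leaving out the lymph-node-rich libraries gave Lpl 0.35, and leaving out the liver-rich ones gave Cebpa -0.49, Fabp4 0.063, Car3 0.017 and Gpd1 -1.77. Leaving out 1 library gave Lpl -0.68 to 0.15, Gpd1 -0.22 to 1.35 and Cebpa -0.17 to 0.36.

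In SF_HPD against SF_ConD, log2 fold changes that turned were Cebpa 0.40, Fabp4 0.26, Lpl 0.59, Cd36 0.91, Car3 0.14 and Gpd1 0.94 without SF_HPD 2, and Cebpa 0.39, Fabp4 0.52, Lpl 0.36, Cd36 0.80, Car3 0.24 and Gpd1 0.69 with the lean as a covariate besides. With array weights they were Pparg 0.14, Cebpa 0.47, Fabp4 0.82, Lpl 0.0016, Cd36 0.71, Car3 0.073 and Gpd1 0.44. Centring on adipocyte reference markers gave Pparg 0.46, Cebpa 0.34, Fabp4 0.58, Cd36 0.21 and Gpd1 0.44. Others were Fabp4 0.0091 and Gpd1 0.14 with quantile normalization, Acvr1c -0.084 with a pseudocount of 0.1, Acvr1c -0.43 with limma-voom, Fabp4 0.068 with the lean as a covariate, Plin4 -0.68 and Acvr1c -0.65 without lymph-node-rich libraries and Fabp4 0.26, Plin4 -0.50 and Acvr1c -0.37 without libraries of high lean. Leaving out 1 library gave Pparg -0.31 to 0.066, Fabp4 -0.36 to 0.28, Gpd1 -0.69 to 0.94, Plin4 -0.10 to 1.34, Acvr1c -0.18 to 0.94, Cebpa -0.61 to 0.40, Lpl -1.28 to 0.59, Cd36 -0.90 to 0.91 and Car3 -1.26 to 0.14.

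In SF_HPD against SC_ConD, values that turned were Cebpa 0.48, Lpl 0.23, Cd36 0.18, Plin4 0.39 and Acvr1c 0.21 without SF_HPD 2, and Cebpa 0.47, Lpl 0.11, Cd36 0.11, Plin4 0.22 and Acvr1c 0.076 with the lean as a covariate besides. Array weights gave Cebpa 0.73, Cd36 0.0052 and Plin4 0.14, and centring on the reference markers Cebpa 0.72, Plin4 0.42 and Acvr1c 0.47. Cebpa was at 0.054 with TPM and 0.19 with quantile normalization; Gpd1 was at -0.64 without lymph-node-rich libraries, and Fabp4 0.015 and Gpd1 -1.95 without liver-rich ones. Leaving out 1 library gave Cebpa -0.53 to 0.48, Plin4 -1.05 to 0.39, Acvr1c -0.91 to 0.21, Gpd1 -0.40 to 1.25, Lpl -1.64 to 0.23 and Cd36 -1.64 to 0.18. The cause of these turns was not tested.

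The median log2 fold change of all genes, -0.03, 0.01 and 0.02 as reported, was 0.15 and 0.25 under TPM in the comparisons with SC_ConD, 0.27, -0.14 and 0.16 under limma-voom, and 0.28, 0.64 and 0.94 with centring on adipocyte markers. Depth limited few values: all 10 genes had at least 337 reads in the 12 libraries other than SF_HPD 2.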
